A study of Homo sapiens with 12 samples.

Results

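The polyol and methylglyoxal detoxification enzymes are a set of 9 genes, GLO1, HAGH, PARK7, AKR1B1, AKR1A1, SORD, KHK, FN3K and FN3KRP, chosen by name from the 23398 gene entries of the deposited table. All 9 were in the table and all 9 passed the filter on low counts that left 14324 genes for testing. They were followed in messenger RNA of human brain microvascular endothelial cells, commercial cells from the capillary wall of the brain, after 48 h of transfection. The siGlut1 treatment targets SLC2A1, the gene of the glucose transporter Glut1, and the other is a non-silencing siRNA. The groups were siGlut1 in high glucose (3 libraries), non-silencing siRNA in high glucose (2 libraries), siGlut1 in control medium (3 libraries) and non-silencing siRNA in control medium (3 libraries). All groups shared the cells, the supplier's growth medium and transfection with an siRNA, and no untransfected group was used. The sources used here do not give the glucose concentrations, nor how many siRNAs siGlut1 holds. The labels do not say whether the replicates came from separate cultures, so a p-value here reflects the spread between libraries, which may be technical. The question behind the design was how the transcriptome differs when Glut1 is suppressed, when glucose is high and when both apply.

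Glucose that is not consumed by glycolysis can enter the polyol pathway, in which aldose reductase (AKR1B1) reduces it to sorbitol, sorbitol dehydrogenase (SORD) oxidises sorbitol to fructose, and ketohexokinase (KHK) phosphorylates fructose. Triose phosphates of glycolysis break down without an enzyme to methylglyoxal, a reactive aldehyde that modifies proteins and gives rise to advanced glycation end products. The glyoxalase system removes it: GLO1 converts the adduct of methylglyoxal and glutathione to S-lactoylglutathione, and HAGH (glyoxalase 2) releases D-lactate and regenerates glutathione. AKR1A1 (aldehyde reductase) and AKR1B1 also reduce methylglyoxal, and PARK7 (DJ-1) is a redox-sensitive protein for which a glyoxalase or deglycase activity has been described and debated. FN3K phosphorylates fructosamines on glycated proteins, which then fall off, and its relative FN3KRP acts on ribulosamines. Endothelial cells are a classical site of damage from these routes in diabetes.

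The promoters of 3 of the enzymes are shown because they head the enzymes whose levels the results turn on (GLO1 and AKR1B1) and the 1 promoter among them with an antioxidant response element core (PARK7). Each is the 250 bases before a transcription start in RefSeq (GRCh38.p14), written 5′ to 3′ on the gene's strand, with the motifs found by search in capitals. The stretches are chr6:38703146-38703395 on the minus strand for GLO1, chr7:134459101-134459350 on the minus strand for AKR1B1 and chr1:7961461-7961710 on the plus strand for PARK7.
GLO1: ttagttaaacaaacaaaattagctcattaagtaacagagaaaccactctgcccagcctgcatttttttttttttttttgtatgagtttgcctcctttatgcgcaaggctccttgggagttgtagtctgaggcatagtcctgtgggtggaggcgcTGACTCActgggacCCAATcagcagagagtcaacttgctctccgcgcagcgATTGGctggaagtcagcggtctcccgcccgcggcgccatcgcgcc
AKR1B1: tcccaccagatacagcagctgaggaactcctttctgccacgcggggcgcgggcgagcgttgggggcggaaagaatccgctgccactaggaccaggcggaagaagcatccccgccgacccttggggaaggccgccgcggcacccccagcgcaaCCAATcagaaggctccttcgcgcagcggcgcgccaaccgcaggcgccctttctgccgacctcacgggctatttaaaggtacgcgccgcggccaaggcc
PARK7: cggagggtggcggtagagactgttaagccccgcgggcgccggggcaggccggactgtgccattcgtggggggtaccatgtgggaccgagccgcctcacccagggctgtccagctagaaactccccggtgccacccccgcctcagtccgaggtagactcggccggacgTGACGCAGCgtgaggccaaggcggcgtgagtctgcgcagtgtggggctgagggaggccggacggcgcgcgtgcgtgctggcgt

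In the GLO1 promoter the capitals mark an AP-1 site (TGACTCA, 96 bases before the start) and a CCAAT box on each strand (CCAAT at 82 bases and ATTGG at 45 bases before the start). In the AKR1B1 promoter they mark 1 CCAAT box at 98 bases, and in the PARK7 promoter the core TGACGCAGC at 83 bases before the start. Of 35116 RefSeq promoters of the same length, 6.57% held the AP-1 site TGANTCA, 32% held CCAAT and 10.9% held the antioxidant response element core TGACNNNGC, each on either strand. The core overlaps no AP-1 match in these 3 promoters. The E-box CACGTG, held by 6.34% of promoters, was found for AKR1A1 and for 1 of 2 starts of HAGH, and TGGAAA, the core of the NFAT5 motif (18%), in none of the 8 stretches listed for 6 of the 9 enzymes. The G and C share was 51.2% for GLO1, 68% for AKR1B1 and 71.6% for PARK7, against a median of 58% over all promoters. A match of letters is a description and not a site of binding.

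In the deposited table (hg19), the GLO1 entry spans 38643702 to 38670952 of chromosome 6, AKR1B1 134127107 to 134143888 of chromosome 7, AKR1A1 46016455 to 46035723 and PARK7 8021714 to 8045342 of chromosome 1, and HAGH 1859104 to 1877195 of chromosome 16. SORD spans 45315302 to 45367287 of chromosome 15 and KHK 27309611 to 27323619 of chromosome 2. In these cells 4 of the 9 enzymes were among the more abundant transcripts. By deposited RPKM, which is corrected for gene length, PARK7 had a median of 150 over the 11 libraries (range 135 to 173), AKR1B1 126 (120 to 150), GLO1 86.0 (77.6 to 123) and AKR1A1 55.1 (48.0 to 62.4). These medians lay at the percentiles 97.3, 96.7, 94.9 and 92 of the genes tested. SORD (17.8 RPKM, range 14.7 to 20.6), HAGH (17.01, 13.3 to 18.4) and FN3KRP (14.02, 12.04 to 16.5) formed a middle group whose ranges overlapped, so that their order is not resolved. FN3K had a median of 6.10 RPKM (4.30 to 8.11) and KHK one of 0.855 RPKM (0.574 to 1.13), with 62 to 216 counts per library. The enzymes that open both routes, AKR1B1 and GLO1, were thus present at higher levels per length than the enzymes that follow them. Across all libraries the highest CPM (counts scaled to a common library size) of a gene was 1.22 times its lowest for AKR1B1, 1.54 times for GLO1, 1.90 times for FN3K and 1.94 times for KHK.

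**Figure D1:**
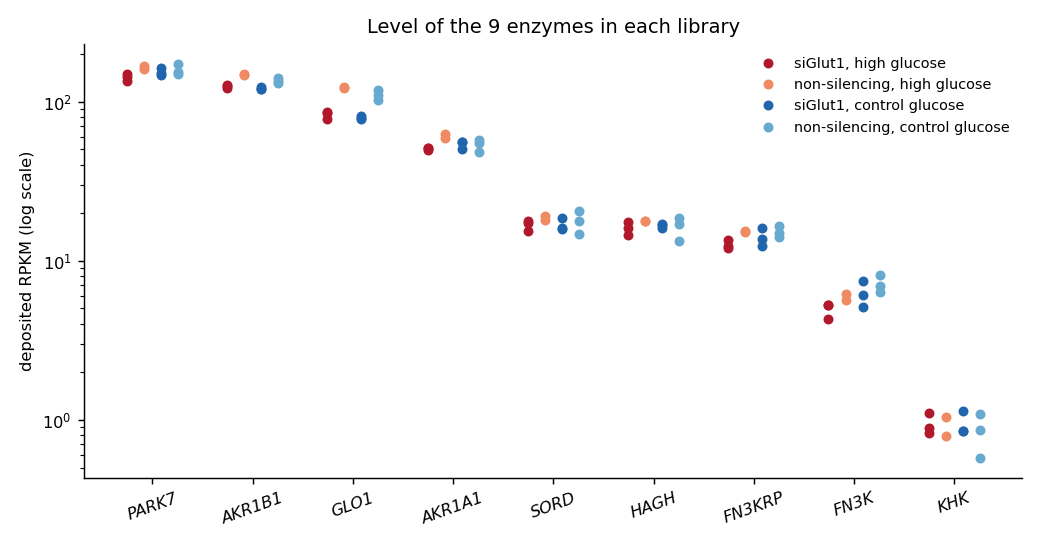
Deposited RPKM (log scale) of each of the 9 enzymes, 1 point per library, coloured by group, with the enzymes ordered by median. PARK7, AKR1B1, GLO1 and AKR1A1 lie above 48 RPKM in all 11 libraries, KHK between 0.574 and 1.13 RPKM.

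The libraries held 40135082 to 90536476 counts. SLC2A1 had 7.09, 7.19 and 6.38 CPM in siGlut1 high glucose libraries against 21.2 and 20.7 CPM in non-silencing high glucose libraries, and 8.56, 9.05 and 6.26 CPM in siGlut1 control libraries against 25.7, 23.7 and 22.2 CPM in non-silencing control libraries, so that the targeted transcript was low in each siGlut1 library (log2 fold change -1.61, adjusted p = 0.000888, in high glucose and -1.58, adjusted p = 0.000884, in control medium, edgeR). The summed level of 8 endothelial markers was 4710 to 7550 CPM, with CDH5 at 1460 to 1920 CPM. Of markers of other cells, fibroblast genes summed to at most 2.38 CPM and astrocyte genes to at most 0.127 CPM, and CSPG4 and PDGFRB of mural cells reached at most 0.202 and 0.363 CPM. Leukocyte markers summed to 38 to 73.2 CPM, nearly all CD68 (PTPRC at most 0.119 CPM), neuron markers to 31.7 to 46.9 CPM, nearly all SYT1 (RBFOX3 at most 0.198 CPM), and epithelial markers to 33.8 to 111 CPM, nearly all KRT19 (CDH1 at 0). ACTA2 of the mural list was at 19 to 23.6 CPM. RGS5, listed as a mural marker, stood at 1490 to 2420 CPM and made up nearly all of the mural sum, which was 1700 to 2040 CPM with siGlut1 against 2380 to 2440 CPM with non-silencing siRNA in high glucose, and 1510 to 1620 CPM with siGlut1 against 1840 to 2170 CPM with non-silencing siRNA in control medium. The mural sum thus moved in the same direction as GLO1, and its part in the results was not tested. The column labelled replicate 2 of non-silencing siRNA in high glucose equals the mean of replicates 1 and 3 in 23397 of 23398 entries and was left out. Leaving out replicate 3 of both control groups changed the number of genes called for high glucose, averaged over the siRNAs, to 2580, against 59 with these libraries, so values without them are given beside the enzymes and the averaged list counts they change.

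GLO1 was lower with siGlut1 in both media. In control medium it had 178, 170 and 171 CPM in siGlut1 libraries, against 236, 226 and 250 CPM in non-silencing libraries. In high glucose it had 187, 183 and 170 CPM in siGlut1 libraries, against 261 and 261 CPM in non-silencing libraries. All 6 siGlut1 libraries were below all 5 non-silencing libraries. GLO1 averaged 173 ± 4.55 CPM with siGlut1 and 237 ± 12.01 CPM with non-silencing siRNA in control medium (SD, n = 3 each), and 180 ± 8.97 CPM (n = 3) and 261 ± 0.320 CPM (n = 2) in high glucose. The log2 fold change was -0.46 ± 0.06 (SE, 95% interval -0.59 to -0.32, adjusted p = 0.00646) in control medium and -0.54 ± 0.07 (SE, -0.69 to -0.38, adjusted p = 0.00415) in high glucose, by the quasi-likelihood test of edgeR, with p-values adjusted (Benjamini-Hochberg) over all 14324 genes. The transcript fell by 27.1% in control medium and fell by 31.0% in high glucose, and averaged over the media the log2 fold change was -0.50 ± 0.05 (adjusted p = 0.000175). In bulk RNA, fewer cells with a transcript and less of it per cell cannot be told apart. The call in control medium held in all 21 alternatives run; the call in high glucose did not hold without non-silencing high glucose replicate 1 (-0.52, adjusted p = 0.0576) or without replicate 3 (-0.54, adjusted p = 0.0716), where that group has 1 library.

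GLO1 was the 1 member of the set of 9 that fell in each medium, and no member rose. Of all genes tested, 1.26% were called lower with siGlut1 in control medium and 1.64% in high glucose. The median log2 fold change of the 9 enzymes was -0.05 in control medium, where that of all genes was -0.0067, and -0.22 in high glucose, where that of all genes was -0.00048. In control medium 6 of the 9 had a negative fold change and in high glucose 8 of the 9. Groups that did not overlap, with every siGlut1 library lower, were found for 2 enzymes in control medium (GLO1 and AKR1B1; 9.6% of all genes) and for 6 in high glucose (GLO1, PARK7, AKR1B1, AKR1A1, FN3K and FN3KRP; 22% of all genes). The 9 enzymes together summed to 700 to 715 CPM in siGlut1 against 863 to 873 CPM in non-silencing high glucose libraries, and to 712 to 731 CPM in siGlut1 against 782 to 828 CPM in non-silencing control libraries. GLO1 made up 23.8% to 26.8% of that sum with siGlut1 and 29.9% to 30.3% with non-silencing siRNA in high glucose.

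**Figure D2:**
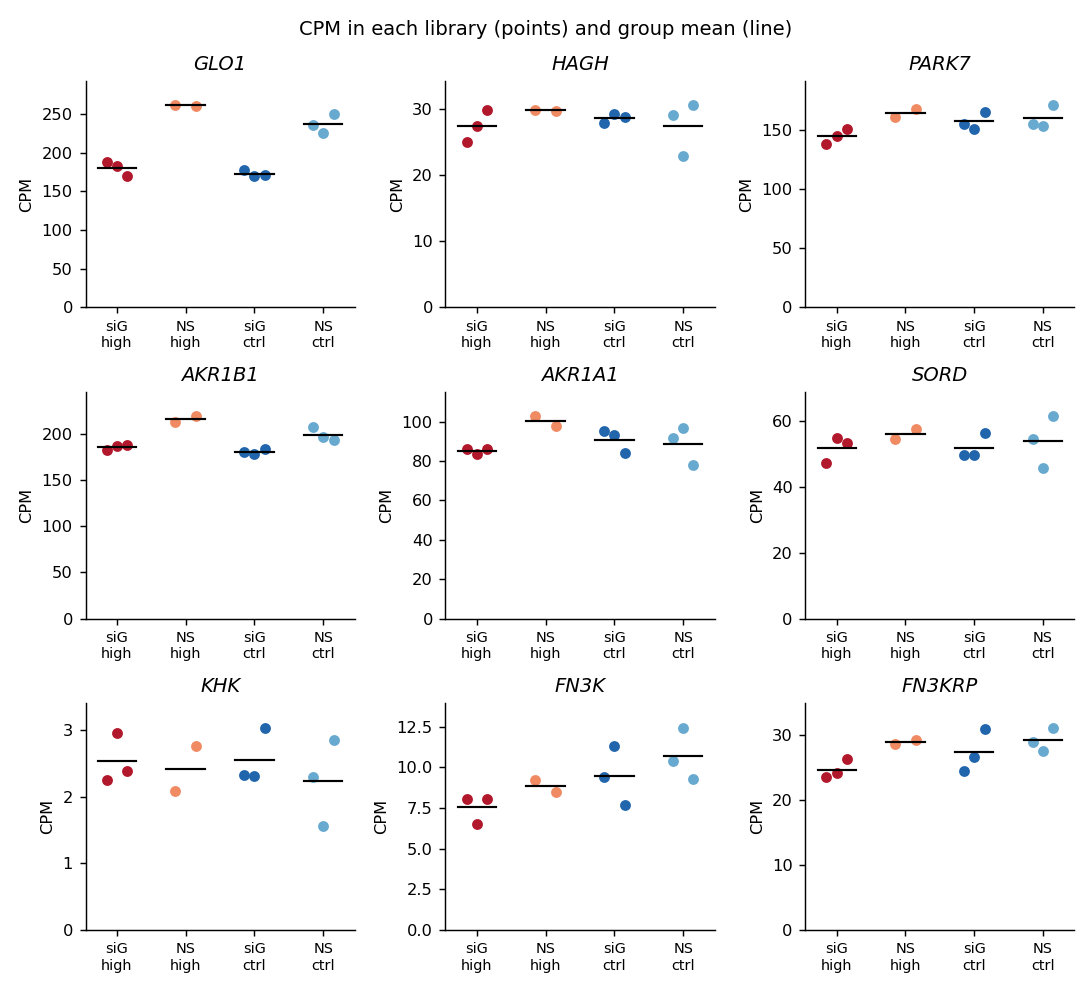
CPM of each enzyme in each of the 11 libraries (points) with the group mean (line), for siGlut1 (siG) and non-silencing siRNA (NS) in high glucose (high) and control medium (ctrl); each axis starts at 0. GLO1 lies at 170 to 187 CPM in the 6 siGlut1 libraries and at 226 to 261 CPM in the 5 non-silencing libraries, and the groups of HAGH, SORD and KHK overlap.

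HAGH, which takes over the product of GLO1, was not called in either medium. It had 27.9, 29.2 and 28.7 CPM in siGlut1 and 28.96, 22.9 and 30.5 CPM in non-silencing control libraries, and 24.9, 27.3 and 29.8 CPM in siGlut1 against 29.9 and 29.7 CPM in non-silencing high glucose libraries. The groups overlap in both media. Its log2 fold change was 0.06 (95% interval -0.17 to 0.29) in control medium and -0.12 (-0.38 to 0.14) in high glucose, so that a fall of the size of that of GLO1 lies outside both intervals. The RPKM ratio of GLO1 to HAGH was 5.03, 4.56 and 4.69 in siGlut1 against 6.41, 7.77 and 6.44 in non-silencing control libraries. In high glucose it was 5.92, 5.27 and 4.497 in siGlut1 against 6.89 and 6.91 in non-silencing libraries. The ratio was lower in all 6 siGlut1 libraries than in all 5 non-silencing ones; it is given as a description, with no test.

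PARK7 had 156, 151 and 166 CPM in siGlut1 and 155, 154 and 171 CPM in non-silencing control libraries, and 138, 145 and 151 CPM in siGlut1 against 161 and 168 CPM in non-silencing high glucose libraries. The groups overlap in control medium and are apart in high glucose. The log2 fold change was -0.02 (95% interval -0.17 to 0.13) in control medium and -0.18 (-0.35 to -0.02, adjusted p = 0.194) in high glucose by edgeR's test, and neither passed. Measured against PARK7, GLO1 was lower with siGlut1 too: the RPKM ratio of PARK7 to GLO1 was 1.86 to 2.06 in siGlut1 against 1.40 to 1.46 in non-silencing control libraries, and 1.57 to 1.90 in siGlut1 against 1.32 to 1.37 in non-silencing high glucose libraries.

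AKR1B1, the entry enzyme of the polyol pathway, was lower with siGlut1 by less than GLO1. It had 180, 179 and 184 CPM in siGlut1 against 207, 196 and 194 CPM in non-silencing control libraries, and 182, 187 and 188 CPM in siGlut1 against 213 and 219 CPM in non-silencing high glucose libraries. All siGlut1 libraries were below all non-silencing libraries. The log2 fold change was -0.14 ± 0.06 (SE, adjusted p = 0.214) in control medium and -0.22 ± 0.06 (adjusted p = 0.0733) in high glucose by edgeR's test, and neither passed alone. Averaged over the media AKR1B1 fell by 11.6%, a log2 fold change of -0.18 ± 0.04 (adjusted p = 0.0156). That average called 2 of the 9 enzymes, GLO1 and AKR1B1, and 6.49% of all genes as lower. The averaged call of AKR1B1 was lost without non-silencing high glucose replicate 1 (-0.18, adjusted p = 0.0585) or replicate 3 (-0.17, adjusted p = 0.0778). DESeq2 called AKR1B1 in high glucose (-0.22, adjusted p = 0.00721), where edgeR did not. In that comparison DESeq2 called 1259 of all genes and edgeR 589. Of the 50-base windows of its transcript, 4.78% also occur in transcripts of 4 other genes, with the largest single share, 1.76%, in the pseudogene AKR1B1P1.

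SORD and KHK, the next steps of the polyol pathway, were not called. SORD had 49.6, 49.5 and 56.4 CPM in siGlut1 and 54.5, 45.5 and 61.3 CPM in non-silencing control libraries, and 47.3, 54.7 and 53.2 CPM in siGlut1 against 54.4 and 57.5 CPM in non-silencing high glucose libraries. Both pairs of groups overlap, with log2 fold changes of -0.05 (95% interval -0.29 to 0.18) and -0.11 (-0.37 to 0.15). SORD shares 33.1% of its 50-base windows with the transcript of SORD2P, so its counts are uncertain. KHK had 2.32, 2.32 and 3.04 CPM in siGlut1 and 2.30, 1.57 and 2.85 CPM in non-silencing control libraries, and 2.25, 2.96 and 2.39 CPM in siGlut1 against 2.08 and 2.77 CPM in non-silencing high glucose libraries. Its intervals, -0.32 to 0.68 in control medium and -0.50 to 0.62 in high glucose, were the widest of the 9, and the KHK entry overlaps that of CGREF1. The RPKM ratio of AKR1B1 to SORD was 6.75 to 7.52 with siGlut1 and 6.55 to 8.94 with non-silencing siRNA in control medium, and 7.08 to 7.98 with siGlut1 and 7.89 to 8.13 with non-silencing siRNA in high glucose, so that it overlapped in both media.

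**Figure D3:**
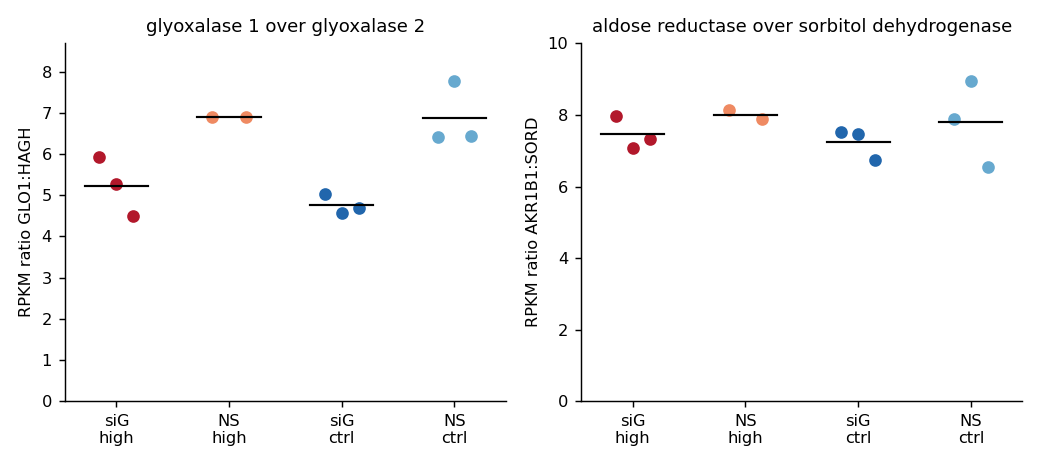
Ratio of deposited RPKM in each library (points) and group mean (line): GLO1 over HAGH on the left and AKR1B1 over SORD on the right, for siGlut1 (siG) and non-silencing siRNA (NS) in high glucose (high) and control medium (ctrl). GLO1 over HAGH is 4.497 to 5.92 in siGlut1 libraries and 6.41 to 7.77 in non-silencing libraries, while AKR1B1 over SORD overlaps between the groups.

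AKR1A1, the relative of aldose reductase that reduces aldehydes, had 94.97, 93.3 and 83.9 CPM in siGlut1 and 91.8, 96.5 and 78.1 CPM in non-silencing control libraries, and 85.8, 83.6 and 86.2 CPM in siGlut1 against 103 and 97.8 CPM in non-silencing high glucose libraries. The groups overlap in control medium, where replicate 3 is the lowest in both, and are apart in high glucose. The log2 fold change was 0.03 (95% interval -0.15 to 0.21) in control medium and -0.23 (-0.44 to -0.03, adjusted p = 0.179) in high glucose by edgeR's test. Without replicate 3 of both control groups the value in high glucose passed (-0.24, adjusted p = 0.0288, edgeR). That fit called 1672 genes in this comparison, against 589 with all 11 libraries. The difference between the media, tested as the interaction, was -0.27 (-0.54 to 0.01, adjusted p = 0.999).

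FN3K and FN3KRP lie side by side on chromosome 17 (hg19 entries 80693452 to 80709073 and 80674582 to 80685893). FN3K had 9.42, 11.3 and 7.70 CPM in siGlut1 and 10.4, 12.4 and 9.30 CPM in non-silencing control libraries, and 8.05, 6.54 and 8.04 CPM in siGlut1 against 9.21 and 8.49 CPM in non-silencing high glucose libraries. FN3KRP had 24.4, 26.6 and 30.9 CPM in siGlut1 and 28.8, 27.4 and 31.1 CPM in non-silencing control libraries, and 23.4, 24.1 and 26.2 CPM in siGlut1 against 28.6 and 29.1 CPM in non-silencing high glucose libraries. Both genes overlap between the groups in control medium and are apart in high glucose. Neither was called: the log2 fold changes were -0.17 (adjusted p = 0.627) and -0.23 (adjusted p = 0.500) for FN3K and -0.09 (adjusted p = 0.668) and -0.23 (adjusted p = 0.240) for FN3KRP in control medium and high glucose by edgeR's test. Averaged over the media FN3KRP had -0.16 (adjusted p = 0.153, edgeR). Without replicate 3 of both control groups it passed (-0.19, adjusted p = 0.0435, edgeR). That fit called 2536 genes in this average, against 2065 with all 11 libraries.

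High glucose moved none of the 9 enzymes past the threshold with either siRNA. With non-silencing siRNA edgeR called 0 of the 9 and 0% of all genes, with 0 of the 9 and 774 of 14324 genes at an unadjusted p under 0.05, and DESeq2 called 30 genes, none of them a member. With siGlut1 edgeR called 0 of the 9 and 0.014% of all genes, with 0 of the 9 and 2176 of 14324 genes at an unadjusted p under 0.05, and DESeq2 called 382 genes, none of them a member. With non-silencing siRNA 3 enzymes were higher in both high glucose libraries than in all 3 control libraries, GLO1, AKR1B1 and AKR1A1 (8.61% of all genes), and 1 was lower, FN3K (9.23%). GLO1 had a log2 fold change of 0.14 (95% interval -0.02 to 0.29, adjusted p = 0.917), AKR1B1 one of 0.12 (-0.02 to 0.25) and AKR1A1 one of 0.17 (-0.03 to 0.38) with non-silencing siRNA. With siGlut1 the values were 0.06 (-0.08 to 0.20), 0.04 (-0.08 to 0.16) and -0.09 (-0.27 to 0.09), and the high glucose and control libraries overlapped for all 9 enzymes, where 22.5% of all genes did not overlap in either direction.

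FN3K had the most negative glucose values of the 9, -0.27 with non-silencing siRNA and -0.33 with siGlut1. Averaged over the siRNAs it was -0.30 ± 0.12 (SE, unadjusted p = 0.0257, adjusted p = 0.237) by edgeR's test. Without replicate 3 of both control groups it passed (-0.41, adjusted p = 0.0226, edgeR). That fit called 2580 genes in this average, against 59 with all 11 libraries. With all 11 libraries the average over siRNAs called 0 of the 9 and 0.412% of all genes by edgeR. At an unadjusted p under 0.05 were 1 of the 9 and 2425 of 14324 genes. DESeq2 called 504 genes, none of them a member. GLO1 averaged 0.10 (adjusted p = 0.313). The comparisons share libraries, since the non-silencing high glucose group enters the siRNA comparison in high glucose, the glucose comparison with non-silencing siRNA and the interaction.

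The interaction, which asks whether siGlut1 acted differently in the 2 media, called 0 of the 9 and 0% of all genes by edgeR, with 0 of the 9 and 394 genes at an unadjusted p under 0.05, and DESeq2 called 0 genes. For GLO1 it was -0.08 (95% interval -0.29 to 0.13) and for AKR1B1 -0.08 (-0.26 to 0.10). The estimate was negative for all 9 enzymes, with a median of -0.12, and negative for 49.2% of all genes, with a median of 0.0034. The 9 estimates come from the same 11 libraries and are not independent.

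**Figure D4:**
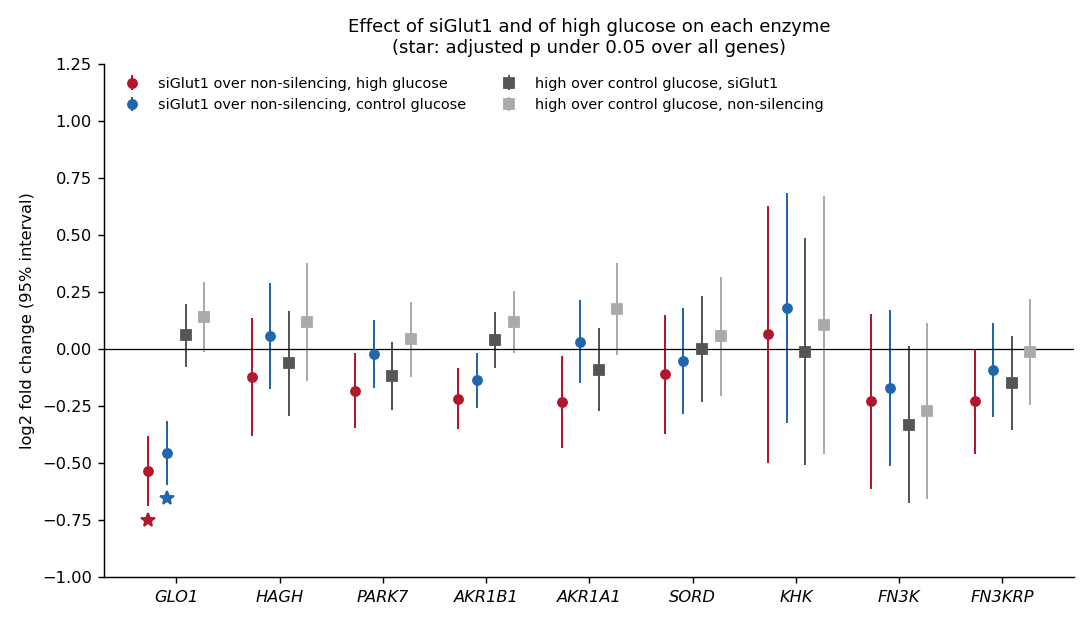
Log2 fold change of each enzyme with its 95% interval: siGlut1 over non-silencing siRNA in high glucose and control medium (circles) and high over control glucose with siGlut1 and with non-silencing siRNA (squares). Stars mark an adjusted p under 0.05 over all genes, which GLO1 alone reaches here, at -0.54 in high glucose and -0.46 in control medium.

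The 5 genes whose levels followed that of GLO1 most closely over the 11 libraries were NRBF2, SEPT10, RPS6KC1, MAGT1 and PAK1, among 11481 genes of at least 2 CPM on average. Their root mean square distance from GLO1 in centred log2 CPM was 0.056 to 0.069, where the median gene stood at 0.291. SEPT10 had log2 fold changes with siGlut1 of -0.54 in control medium and -0.49 in high glucose, and NRBF2 had -0.43 and -0.46. PAK1 was not called in control medium (-0.32, adjusted p = 0.0582, edgeR). The 5 genes were picked by closeness to GLO1 in these same libraries, so fold changes like that of GLO1 follow from the choice. The nearest of the other 8 enzymes was AKR1B1 at 0.169, rank 523.

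Of the neighbouring gene lists, the controllers and marker targets of NRF2, the transcription factor that induces antioxidant enzymes, held the most calls with siGlut1. In each medium 4 of its 7 genes fell and none rose, with a median log2 fold change of -0.32 in control medium and -0.34 in high glucose. Of all genes, 1.26% and 1.64% were called lower, with medians of -0.0067 and -0.00048. This list was chosen with earlier results of these data known. NQO1, a quinone reductase, had 247, 241 and 227 CPM in siGlut1 against 329, 335 and 320 CPM in non-silencing control libraries, and 237, 238 and 221 CPM in siGlut1 against 385 and 355 CPM in non-silencing high glucose libraries. It fell by 0.46 and fell by 0.67 on the log2 scale (adjusted p = 0.00637 and 0.00162, edgeR). PIR, an iron-binding nuclear protein, fell by 0.78 and fell by 1.02 (adjusted p = 0.00965 and 0.00415, edgeR). TXNRD1, a thioredoxin reductase, and SRXN1, a sulfiredoxin, were the others called in both media. The NQO1 calls held with any 1 of the 11 libraries left out, and the PIR calls too, except in high glucose without non-silencing high glucose replicate 3 (adjusted p = 0.0721). TXNRD1 lost its call in 8 of these 11 fits in control medium and 5 in high glucose, and SRXN1 in 8 in each, while all 4 genes held in all 11 fits in the average over media. With only the 2 groups compared, PIR, TXNRD1 and SRXN1 lost their control medium calls (adjusted p = 0.0662, 0.148 and 0.135, edgeR). HMOX1, also on the list, was at -0.20 and -0.24 and was not called (adjusted p = 0.306 and 0.221, edgeR). NFE2L2, which encodes NRF2, was at -0.07 and -0.08 and was not called. High glucose called none of the 7 in any comparison with the 11 libraries. Without replicate 3 of both control groups 2 rose (NFE2L2 and SRXN1) and 1 fell (KEAP1) in the average over siRNAs, among 2580 genes called. Without those libraries TXNRD1 also lost its siGlut1 call in control medium (adjusted p = 0.0822, edgeR).

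Glutathione is used by GLO1 and returned by HAGH. Of 10 tested genes of glutathione supply and the D-lactate steps, none was called in a single medium, and in the average over media 2 fell, GSS (glutathione synthetase, -0.16, adjusted p = 0.0314) and GSR (glutathione reductase, -0.19, adjusted p = 0.0360, edgeR). Each of these calls was lost in 8 of the 11 fits with 1 library left out (adjusted p up to 0.147 for GSS and 0.127 for GSR). The median of this list was -0.18 in the average over media, where that of all genes was -0.0045. Its directions were mixed: GCLC was at 0.19 and GCLM at -0.18, and neither was called (adjusted p = 0.0808 and 0.255, edgeR). Of all 14324 genes, that average called 929 lower and 1136 higher. Counts of 1 in 9 or 2 in 10 called lower are above the 6.49% of all genes called lower, but rest on 1 or 2 genes. Of 9 tested genes of the triose phosphate and fructose steps, GPD1L (a glycerol phosphate dehydrogenase) fell in that average (-0.23, adjusted p = 0.0485) and the rest, TPI1 (0.08) and GAPDH (0.09) among them, were not called. The GPD1L call was lost in 8 of those 11 fits (adjusted p up to 0.160). Of 9 tested other aldo-keto reductases and related carbonyl-reducing enzymes, DCXR (dicarbonyl and L-xylulose reductase) fell in that average (-0.28, adjusted p = 0.0183, edgeR), but not without non-silencing high glucose replicate 3 (adjusted p = 0.103). Without replicate 3 of both control groups the average over media called 2536 genes of the whole table. Among them were 3 lower and 1 higher of the glutathione list, 3 lower and 1 higher of the triose list and 2 lower of the reductases. The glucose average then called 2580 genes, against 59 with all 11 libraries. Of these lists it called 1 lower and 3 higher, 1 lower and 1 higher, and 2 lower and 1 higher. With all 11 libraries it called none of them.

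The aldehyde dehydrogenases, which oxidise aldehydes to acids, had 1 of 15 tested genes called in high glucose, ALDH1A2, a retinaldehyde dehydrogenase (-0.30, adjusted p = 0.0435, edgeR), a call lost in 9 of 11 fits with 1 library left out (adjusted p up to 0.254). Of all genes, 1.64% were called lower with siGlut1 in high glucose. In the average over media ALDH1A2 (-0.27) and ALDH9A1 (-0.25, adjusted p = 0.00453, edgeR) fell and ALDH7A1 rose (0.23, adjusted p = 0.0282, edgeR). Of all 14324 genes, 929 were called lower and 1136 higher in that average. The calls of ALDH1A2 and ALDH9A1 in that average held in all 11 fits, and that of ALDH7A1 was lost in 7 (adjusted p up to 0.131). Of 7 tested genes on the list of receptors of glycated proteins, which includes AGER, PRKCSH rose in the average over media (0.34, adjusted p = 0.0329, edgeR). As a count, 1 of 7 is near the share of all genes called in either direction in that average (2065 of 14324). PRKCSH, also known as a subunit of glucosidase II of the endoplasmic reticulum, had the only call of that list, lost in 7 of the 11 fits (adjusted p up to 0.129). Without replicate 3 of both control groups the glucose average called 2 aldehyde dehydrogenases (ALDH4A1 and ALDH16A1) and PRKCSH lower, where it called none with all 11 libraries. That fit called 2580 genes of the whole table.

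The osmotic list, with NFAT5 and the transporters it induces, is the list beside the polyol pathway because sorbitol and AKR1B1 belong to the osmotic response. In the average over siRNAs 2 of its 6 tested genes rose in high glucose and none fell, where 0.412% of all genes were called in either direction. SLC5A3, the myo-inositol transporter, had 30.1, 30.8 and 25.1 CPM in siGlut1 high glucose against 16.9, 13.9 and 19.7 CPM in siGlut1 control libraries, and 21.3 and 22.7 CPM in non-silencing high glucose against 17.8, 14.7 and 18.3 CPM in non-silencing control libraries. All high glucose libraries were above all control libraries, and the averaged log2 fold change was 0.57 (adjusted p = 0.0458, edgeR). SLC38A2, an amino acid transporter, rose by 0.32 (adjusted p = 0.0382, edgeR). Both glucose calls were lost in 9 of 11 fits with 1 library left out, with an adjusted p of up to 0.188 for SLC5A3 and 0.225 for SLC38A2, each without non-silencing high glucose replicate 1. Without replicate 3 of both control groups both held (adjusted p = 0.00386 for SLC5A3 and 0.00842 for SLC38A2, edgeR), and 4 of the 6 genes rose, among 2580 genes called. With each library's trend with gene length removed, the SLC5A3 call was lost (0.43, adjusted p = 0.0979, edgeR). SLC6A6, the taurine transporter, fell with siGlut1 in control medium (-0.65, adjusted p = 0.0111) and in high glucose (-0.59, adjusted p = 0.0209, edgeR). The call in control medium held in all 11 fits and that in high glucose in 7. With only the 2 groups compared, the SLC6A6 call in control medium was lost (adjusted p = 0.0612, edgeR). AKR1B1 had an averaged glucose value of 0.08 (adjusted p = 0.364).

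**Figure D5:**
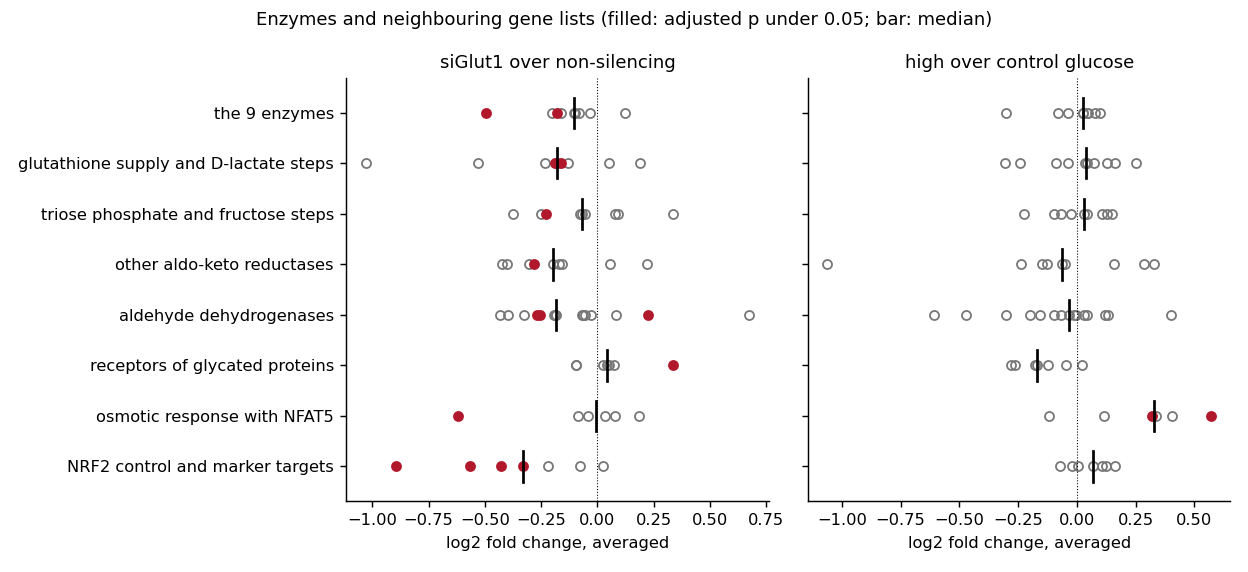
Log2 fold change of each tested gene (circles) of the 9 enzymes and of 7 neighbouring lists, for siGlut1 over non-silencing siRNA averaged over media (left) and high over control glucose averaged over siRNAs (right). Filled circles have an adjusted p under 0.05 and bars mark the median of a list; on the left 2 enzymes and 4 of 7 NRF2 genes are filled below 0, and on the right 2 osmotic genes are filled above 0.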

How the data were processed

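Messenger RNA was sequenced in the samples described above, and the labels' protocols name 2 library kits (TruSeq stranded mRNA; SMARTER) for every sample and do not tie either kit to a library. The deposited counts, raw per the file headers, are whole numbers for each gene. The deposited RPKM values are the authors' own, per the file headers, and were used for levels and ratios between genes. The submitters' processing notes name hg19 and DESeq2 without a version. The sources used here do not give the aligner, the counter, its use of strand or the annotation. All counts of the 11 libraries used are even. Of the columns, 0 lacked a sample.

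Counts of 23274 entries, without those of the Y chromosome and 1 X-linked long non-coding RNA, entered edgeR 4.0.16 (R 4.3.3): filterByExpr with the groups, TMM scaling and 1 quasi-likelihood model of the 4 groups and no replicate block (residual degrees of freedom 7, prior degrees of freedom 4.46 at the median, dispersion 0.0161 in common). Tests were two-sided, adjusted by Benjamini and Hochberg over all 14324 genes of a comparison, with a threshold of 0.05. Of the 12 deposited columns of counts, 11 were fitted. The standard error is the log2 fold change over the square root of F. CPM used TMM-scaled totals, with a prior count of 2 on the log2 scale. Shared 50-base windows were counted in GENCODE v29 transcripts, and promoter sequences came from RefSeq (GRCh38.p14), which matched 6 of the 9 enzymes; SORD, KHK and FN3KRP had none. Alternatives included DESeq2 1.42.0.

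The enzymes, the gene lists and the tests were chosen with earlier results of these data known. The genes named are the 9 enzymes, SLC2A1, up to 4 members of each list past the threshold in any comparison with the smallest adjusted p (the 2 with most counts where none passes) and the 5 genes closest to GLO1. TPI1, GAPDH, NFE2L2, HMOX1, GCLC, GCLM and AGER were named for their roles. KEAP1, ALDH4A1 and ALDH16A1 were named for their calls without 2 libraries. All of these were named after their values were seen. The alternatives were run for the neighbouring lists after seeing the data. The test script was checked on simulated data.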

Additional observations from a re-analysis of the deposited data

How the results depend on the processing

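Each of 36 fold changes of the enzymes, those picked for reporting, was recomputed under up to 21 alternatives (746 values). Of these values 724 kept their direction and their side of the threshold. Most of the 36 were not called in the main fit and the alternatives reuse the same libraries, so 724 does not measure repeatability. The number of enzymes called with siGlut1 in control medium was 1 in all alternatives, and with high glucose in either siRNA and for the interaction 0. With siGlut1 in high glucose 2 enzymes were called by DESeq2 and with all 12 columns, and 3 without replicate 3 of both control groups, where AKR1B1 (-0.22) and AKR1A1 (-0.24) joined GLO1; leaving out each library in turn gave 0 to 2. In the average over media leaving out each library gave 1 to 2. The fit with all 12 columns includes the column that equals the mean of 2 others, so it rests on no further library. It called 1807 genes with siGlut1 in high glucose, against 589 without that column. In the average over siRNAs 1 enzyme, FN3K, was called without replicate 3 of both control groups. Without those 2 libraries, siGlut1 in high glucose called 1672 genes of the whole table. Of the lists these held 1 triose, 2 glutathione, 2 reductase and 2 aldehyde dehydrogenase genes lower and PRKCSH higher. The average over media then called 2536 genes, with 3 aldehyde dehydrogenases lower and 1 higher. High glucose with siGlut1 then called 734 genes, with 3 osmotic genes and GCLM higher and 2 aldehyde dehydrogenases and PRKCSH lower. The causes were not tested.

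Values near 0 changed sign: with siGlut1 in control medium AKR1A1 became -0.013 without replicate 3 of both control groups, and the interaction of AKR1B1 became 0.0042 with each library's trend with gene length removed. Leaving out each library gave, in control medium, -0.053 to 0.14 for HAGH, -0.010 to 0.39 for KHK, -0.060 to 0.028 for PARK7, -0.053 to 0.098 for AKR1A1 and -0.16 to 0.051 for SORD, and in high glucose -0.12 to 0.28 for KHK.

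Correlations of deviations from the group means were -0.25 to 0.535 over 15 pairs of libraries with the same replicate number and -0.435 to 0.262 over 30 pairs with other numbers. In control medium the same-numbered pairs had 0.093, 0.353 and 0.535, and number 1 correlated better with siGlut1 number 2 (0.147) than with its own, so a link by number is a hint there, and the labels state none. The fit with the replicate block called 1 enzyme in control medium, 1 in high glucose and 2 in the average over media, as without it; among the list genes it ended the calls of GSS, GSR (average over media) and ALDH1A2 (high glucose). Over all genes edgeR called 424 with siGlut1 in control medium and 589 in high glucose, 561 and 600 with the block, 1005 and 1259 by DESeq2, 70 and 1157 with only the 2 groups compared, and 247 and 1672 without replicate 3 of both control groups. For glucose averaged over siRNAs these were 59 genes, 504 by DESeq2 and 2580 without replicate 3 of both control groups. With all 12 columns, 1 of them the mean of 2 others, 428 were called. Without single libraries the calls ran from 135 to 342 in control medium, 6 to 1079 in high glucose and 0 to 850 for glucose. Dividing the counts by 2, an alternative chosen after seeing the data, gave 460 and 602. Non-silencing siRNA in high glucose has 2 libraries, and KHK, at 62 to 216 counts, has the least depth of the 9.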
